A study of Homo sapiens with 30 samples.

Results

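The cytosolic ribosomal proteins are the protein components of the ribosome outside the mitochondria. Their genes were chosen by symbol alone, as RPL or RPS followed by a number and at most 1 of the letters A, X, Y or L, together with RPSA, RPLP0, RPLP1 and RPLP2 and without the Y-linked copies and the S6 kinases. The rule found 82 genes among the 23710 gene symbols with counts, of which 46 belong to the large (60S) subunit, 33 to the small (40S) subunit and 3 to the stalk of the large subunit. RNA-seq had been performed on V16D cells, a castration-resistant prostate cancer line derived from LNCaP, and on MR49F cells, an enzalutamide-resistant derivative. Each is a single cell line. The methods state that MR49F cells were kept in medium with 10 μM enzalutamide, which is not stated for V16D cells. No time without the drug before treatment in full serum is given. In medium with 10% FBS (full serum), V16D and MR49F cells had each received vehicle (DMSO) or 10 μM enzalutamide, an antiandrogen, for 24 h. In a separate experiment, MR49F cells had been held in 10% charcoal-stripped serum (CSS), which is depleted of androgens, for 72 h. They were then given vehicle (DMSO and ethanol), 10 μM enzalutamide, 1 nM of the androgen DHT, 500 nM of the BET bromodomain inhibitor JQ-1, or the same JQ-1 dose in combination with enzalutamide or with DHT, for 24 h in CSS. Each of the 10 conditions had 3 libraries, 30 in all. The methods describe the replicates as biological, each from RNA of a pair of combined wells of the same line.

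A ribosome is built from ribosomal RNA and a set of ribosomal proteins, which are made in the cytoplasm, imported into the nucleolus and assembled there. The small subunit reads the mRNA and the large subunit joins the amino acids, while the stalk proteins RPLP0, RPLP1 and RPLP2 recruit the elongation factors. The mRNAs of ribosomal proteins typically begin with a C followed by a run of pyrimidines (the 5′ terminal oligopyrimidine, or TOP, motif), through which mTOR and LARP1 control their translation. Levels of these mRNAs therefore need not follow the synthesis of the proteins, which was not measured here.

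RefSeq transcription starts (GRCh38.p14) were available for 64 of the 82 genes, at 79 starts. A C at the start followed directly by at least 4 further C or T was searched on the transcribed strand only. Such a run was present at 46 starts (58.2%) and in 46 of the 64 genes (71.9%), against 4.07% of all 35116 starts and 5.14% of all 27305 genes in the same reference. A match describes these letters and not a regulatory site. The windows listed here show 10 bases before the start and 20 from it, 5′ to 3′ on the transcribed strand, with the run in capitals. They were chosen to show the stalk genes, some of the genes that moved in the comparisons that follow, and paralogues that lack the run. Genes other than paralogues can lack it too: RPL3, which also moved and is not listed, had no such run at its start.
RPLP0 (chr12:120201092-120201121, minus strand): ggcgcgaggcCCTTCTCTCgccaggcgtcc
RPLP1 (chr15:69452808-69452837, plus strand): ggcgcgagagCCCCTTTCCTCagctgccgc
RPLP2 (chr11:809957-809986, plus strand): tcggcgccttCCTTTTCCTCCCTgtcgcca
RPS6 (chr9:19380217-19380246, minus strand): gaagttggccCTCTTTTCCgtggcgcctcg
RPSA (chr3:39406710-39406739, plus strand): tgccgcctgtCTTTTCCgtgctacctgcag
RPL31 (chr2:101002279-101002308, plus strand): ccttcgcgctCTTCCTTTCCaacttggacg
RPL27A (chr11:8682782-8682811, plus strand): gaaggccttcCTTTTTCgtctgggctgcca
RPL13A (chr19:49487598-49487627, plus strand): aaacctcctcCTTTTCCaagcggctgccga
RPL28 (chr19:55385922-55385951, plus strand): cctcgccttcCTCTTTCCgtctcaggtcgc
RPS21 (chr20:62387093-62387122, plus strand): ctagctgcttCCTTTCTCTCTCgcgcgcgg
RPL39 (chrX:119791611-119791640, minus strand): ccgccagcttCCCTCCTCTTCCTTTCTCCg
RPS12 (chr6:132814559-132814588, plus strand): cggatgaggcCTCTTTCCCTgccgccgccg
RPS27 (chr1:153990752-153990781, plus strand): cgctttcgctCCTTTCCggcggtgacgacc
RPS27L (chr15:63157458-63157487, minus strand): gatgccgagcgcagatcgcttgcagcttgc
RPL10L (chr14:46651762-46651791, minus strand): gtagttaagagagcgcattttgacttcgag
The run at RPL39 was 19 bases long and that at RPS21 was 12, while RPS27L, a p53-inducible paralogue of RPS27, and RPL10L, a testis paralogue of RPL10, had none at their listed start. RPL28 and RPL13A, which moved in opposite directions with JQ-1, both began with CT and runs of 8 and 7 bases.

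On the genome build of the deposited files (GRCh37), positions were matched for 81 of the 82 genes, with 12 of them on chromosome 19 and 8 on chromosome 3. RPL31 lies at chr2:101618691-101640494, RPSA at chr3:39448207-39467746, RPLP1 at chr15:69745153-69748544, RPL13A at chr19:49990767-49996314, RPL28 at chr19:55897300-55914618, RPS21 at chr20:60962159-60963576 and RPL27A at chr11:8704335-8736306.

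Between 13170504 and 21154962 reads per library were counted on genes in full serum, but only 982130 to 1813262 in CSS, where 5.13% to 7.664% of reads were assigned to genes against 72.97% to 77.813% in full serum. Counts were raised in CSS for genes with at least 20% of their exonic bases opposite the exons of a gene of at least 50 FPKM: 15 of 36 such genes (41.67%) were higher by more than 2 on the log2 CPM scale, against 5.15% of 20198 other genes. No ribosomal protein gene met this limit, although 3.2% of the exonic bases of RPS28 and 1.8% of those of RPL36 lay opposite such a gene. For CSS, values per library are therefore given as FPKM, and calls over all members are given from counts and from FPKM. Changes of single genes and of other gene lists in CSS are from counts alone unless FPKM is named. Markers of prostate luminal cells were present in V16D cells and in MR49F cells of either serum (HOXB13, 54.6 to 166 FPKM). The lowest CSS values were 6.45 FPKM for KLK3 and 1.01 FPKM for KLK2. Basal KRT5 and TP63, endothelial CDH5 and T cell CD3E had at most 0.0341 FPKM, and basal KRT14 had at most 0.336 FPKM. Other markers of stromal, endothelial and immune cells were low but present (COL1A1 0.616 to 1.77, LUM up to 1.63, PECAM1 up to 0.768 and CD68 1.31 to 6.42 FPKM), and their part in the results was not tested. The MR49F vehicle replicate 1 library in full serum stood apart from its 2 replicates, and values without it are given where they moved by over 1.5 times or changed a call.

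Length-scaled levels (mean FPKM over all libraries) ran from 4765 for RPL41, a short peptide of the large subunit, and 4118 for RPLP1 to 0.44 for RPL3L, the muscle paralogue of RPL3. RPS18, RPS27 and RPS6, the S6 kinase substrate, followed RPLP1 with 3569, 2828 and 2615 FPKM. The 5 lowest genes were RPL3L, RPL10L (6.70), RPL39L (10.5), RPS27L (51.6) and RPL21 (76.3), so 4 of these 5 were paralogues with an L suffix. RPL39L, a testis paralogue of RPL39, had 26.3 FPKM on average in full serum and was listed at 0 in CSS. Only 30 reads in all were counted on it in full serum, so its level there is uncertain. Since full serum and CSS were separate experiments, differences between them were not tested.

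Some of these genes could not be judged from the counts. RPS18 had 1647 to 3493 FPKM in full serum but at most 0.29 CPM (library-size scaled counts, after TMM), RPL21 had no counts at all, and RPL39L and RPL3L were below the filter. Most ribosomal protein genes have near-identical processed pseudogenes elsewhere in the genome, so reads can be split or lost between copies, and levels of single members are uncertain to that extent. RPL17, whose exons overlap those of RPL17-C18orf32, had 10.8, 11.2 and 10.2 CPM in vehicle-treated V16D cells beside 883, 903 and 928 FPKM, and its count results are uncertain, as are those of RPS10 and RPL36A, which also overlap a read-through gene. After the filter on low counts, 76 of the 82 genes were tested in full serum, and 73 in CSS, where RPL10L, RPL17 and RPS10 also fell below it. With a filter at 1 FPKM, 80 or 81 were tested from FPKM in each comparison.

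The ribosomal protein genes took a larger share of all gene counts in MR49F than in V16D cells, and a smaller share with DHT than without it in CSS. In full serum they held 4.65% to 4.66% of the counts of the V16D vehicle libraries and 4.963% to 5.091% with enzalutamide. In MR49F cells they held 6.201% to 6.511% with vehicle and 6.546% to 6.574% with enzalutamide. The libraries of the lines did not overlap, and neither did vehicle and enzalutamide within either line. In bulk RNA, fewer cells of a type and less RNA per cell cannot be told apart. In CSS the share was 8.133% to 8.71% with vehicle, 8.16% to 8.864% with enzalutamide, 7.344% to 7.807% with DHT, 8.137% to 8.253% with JQ-1, 8.364% to 8.429% with enzalutamide and JQ-1 and 7.401% to 7.783% with DHT and JQ-1. Both DHT groups lay below the 4 groups without DHT, with no overlap. As a ratio of means, the share was 1.36 ± 0.033 times as high in MR49F as in V16D cells, and 0.897 ± 0.043 times with DHT the vehicle value in CSS (± SD propagated from 3 libraries each). The difference between the lines was not seen in the share of all summed FPKM, where the ratio was 1.06 ± 0.107 with overlapping libraries (0.996 without MR49F vehicle replicate 1), while without small RNA symbols it was 1.25 ± 0.0409 with no overlap. With enzalutamide in MR49F cells the share of all summed FPKM was 0.894 times that with vehicle (0.949 without MR49F vehicle replicate 1), where counts gave 1.03 (1.02 without that library). In V16D cells it was 1.01 times, with overlap, where counts gave 1.08.

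**Figure D1:**
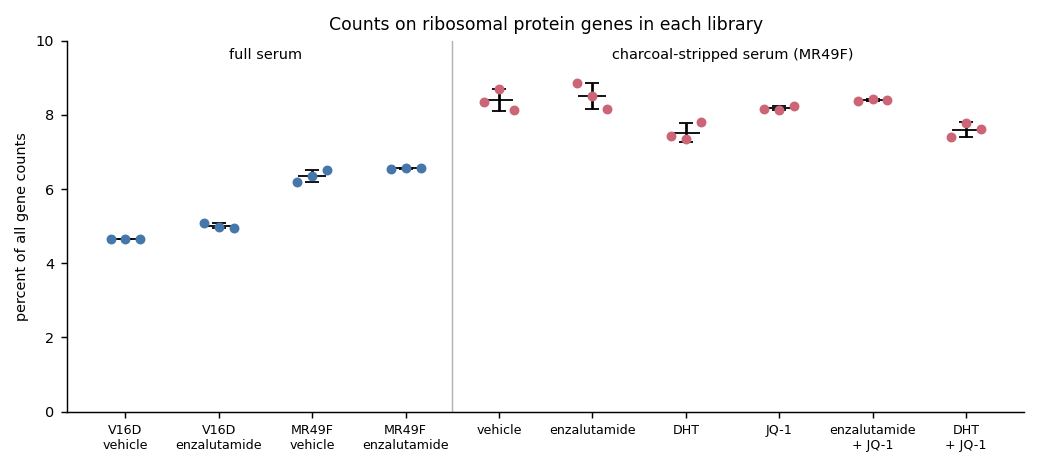
Percent of all gene counts that fell on the 82 ribosomal protein genes (y axis) in each of the 30 libraries, by condition (x axis). Points are libraries, and bars are the mean ± SD of 3. MR49F libraries in full serum lie above all V16D libraries, and the libraries with DHT lie below the others in CSS.

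The comparison of enzalutamide with vehicle in V16D cells asks what the antagonist does in the parental line. Slight rises of ribosomal protein mRNAs passed the test. Changes are given as log2 fold changes throughout, and unless FPKM is named they are from counts. For calls by DESeq2, from rescaled FPKM or without 1 library, the shares of all genes called are not given. Whether the members moved more than all genes cannot be read from those calls. Of 76 genes tested, 40 were higher and 1 was lower (edgeR's quasi-likelihood test, Benjamini-Hochberg adjusted p of at most 0.05), which is 52.6% and 1.32%. Over all genes tested, 18.2% were called higher and 19.3% lower. The median log2 fold change was 0.068 over the members and 0.0038 over all genes, so the shift was small, and the coefficient of variation between replicates was 1.83%. The large subunit had 26 genes higher and none lower of 43, the small subunit 14 higher and 1 lower of 30, and none of the 3 stalk genes passed. From FPKM (limma on log2(FPKM + 1)), 30 of 81 were higher and none lower, where 17.7% of all genes were called higher and 12.7% lower. Called higher in both were 26 members, and the share of all genes called in both was not computed.

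RPL7, a protein of the large subunit, had 916, 898 and 937 CPM with vehicle and 1023, 1027 and 1012 CPM with enzalutamide in V16D cells. Its log2 fold change was 0.15 ± 0.022 (SE, edgeR adjusted p = 2.13e-10). All enzalutamide libraries lay above all vehicle libraries.

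RPS3A, a protein of the small subunit, had 740.5, 739 and 757 CPM and then 841, 826 and 824 CPM, again without overlap, a log2 fold change of 0.15 ± 0.023 (SE, edgeR adjusted p = 3.47e-10). RPS12, also of the small subunit, rose from 436, 431 and 446 CPM to 489.6, 479.9 and 492 CPM, by 0.15 ± 0.024 (SE, edgeR adjusted p = 2.85e-09). Both groups of libraries were apart for these genes, and both were also called from FPKM, at 0.18 and 0.18 on the log2(FPKM + 1) scale.

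RPL13A had the largest called change from counts, 0.19 ± 0.035 (SE, edgeR adjusted p = 6.13e-07), with 108, 97.5 and 93.2 CPM with vehicle and 109.9, 117 and 114 CPM with enzalutamide. RPL13A, also known for the GAIT complex of translational silencing, was listed at 0 FPKM in vehicle replicate 3, while its counts there were like those of the other libraries. RPL9 changed by 0.14 (edgeR adjusted p = 4.21e-08). RPS25, which is needed for translation from several viral entry sites, was the 1 gene called lower, with a log2 fold change of -0.064 ± 0.023 (SE, edgeR adjusted p = 0.0165) and with 798, 779 and 753 CPM against 781, 740.4 and 711 CPM, and here the groups overlapped.

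Among the genes known for other roles, RPL5 and RPL11 bind MDM2 together with 5S RNA when ribosome assembly fails. RPL5 rose by 0.12 (edgeR adjusted p = 3.21e-06), and RPL11 had a value of 0.05 (edgeR adjusted p = 0.0788). RPL10, which joins the large subunit late in assembly, rose by 0.11 (edgeR adjusted p = 0.000395), RPL3, which lies near the peptidyl transferase centre, by 0.13 (edgeR adjusted p = 1.37e-08), RPL22 by 0.063 (edgeR adjusted p = 0.0249) and RPS27 by 0.13 (edgeR adjusted p = 5.48e-07). RPS6 rose by 0.11 (edgeR adjusted p = 3.09e-05), although its CPM overlapped between the groups (1728, 1691 and 1385 against 1944, 1471 and 1779). The stalk genes gave -0.001, -0.039 and -0.014 for RPLP0, RPLP1 and RPLP2, and none passed.

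In MR49F cells, enzalutamide in full serum gave 2 calls among these genes. These cells had been maintained with the drug, so its addition and its withdrawal in the vehicle group cannot be told apart. From counts, 1 of 76 was higher and 1 lower, each 1.32%, against 3.86% higher and 4.62% lower over all genes. The median log2 fold change was 0.057, against 0.0095 over all genes, and without MR49F vehicle replicate 1 it was 0.00826. From FPKM none of 81 passed by limma (4 at an unadjusted p under 0.05), and 2.51% of all genes were called higher and 2.09% lower. DESeq2 called 4. RPL13A had 148, 167 and 173 CPM with vehicle and 183, 192 and 198 CPM with enzalutamide, with no overlap, and rose by 0.24 ± 0.063 (SE, edgeR adjusted p = 0.0418). RPL35, a protein near the exit of the peptide tunnel, had 1209, 1146 and 1099 CPM and 1026, 1025 and 1020 CPM, also with no overlap, and fell by 0.16 on the log2 scale (edgeR adjusted p = 0.0463).

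The number of calls moved with single libraries of both groups. The coefficient of variation was 5.25%, and without MR49F vehicle replicate 1 the count of called genes went from 2 to 17, with 10 higher and 7 lower. Without vehicle replicate 3 it was 20, and without vehicle replicate 2, enzalutamide replicate 2 or enzalutamide replicate 3 it was 0. The shares of all genes called in these fits are not given. Vehicle replicate 1 had 422 CPM of RPL10 where the others had 529 and 551, and 251 CPM of RPL39 where the others had 400 and 472. It had 1387 CPM of RPS25 where the others had 893 and 976, and 1028 CPM of RPL11 against 771 and 765. Its deviations thus went in both directions. Without it RPL13A gave 0.172 and RPL35 -0.133, and both passed.

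The difference between the lines in their response to enzalutamide was tested as an interaction over the 12 full serum libraries. RPL27A, a large subunit protein, was the 1 of 76 genes that passed. It was lower in this difference, as were 2.76% of all genes, while no member was higher and 4.19% of all genes were. In V16D cells RPL27A had 794, 825 and 809 CPM with vehicle and 874, 867 and 848 CPM with enzalutamide. In MR49F cells it had 1296, 1237 and 1213 CPM and 1173, 1156 and 1161 CPM. Every enzalutamide library lay above vehicle in V16D cells and below vehicle in MR49F cells, and the difference of the log2 fold changes was -0.195 ± 0.047 (SE, edgeR adjusted p = 0.0135). From FPKM it was -0.18 ± 0.037 (SE, limma adjusted p = 0.0178), again the 1 called member, with 3.64% of all genes called higher and 2.40% lower. Without V16D vehicle replicate 1 the difference from counts was -0.181 and did not pass, and without MR49F vehicle replicate 1 it was -0.165 and passed. Without MR49F vehicle replicate 1, 17 members passed (1 higher and 16 lower). Without replicate 2 of that group 6 passed, and without replicate 3 it was 16. The shares of all genes called in these fits are not given.

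The vehicle libraries of the 2 lines in full serum ask how the resistant line differs from its parent, and they gave the largest median difference of these genes among the 10 comparisons. Of 76 genes, 67 were higher in MR49F than in V16D cells and 2 were lower, 88.2% and 2.63%. Over all genes tested 31.9% were called higher and 31.8% lower, with a median log2 fold change of -0.0049 against 0.568 for the members. The large subunit had 40 higher and none lower of 43 (median 0.59), the small subunit 24 higher and 2 lower of 30 (median 0.55), and all 3 stalk genes were higher (median 0.66). From FPKM, limma called 66 of 81 higher and 1 lower, against 32.7% and 29.9% of all genes. Called in both with the same sign were 63 members, and the share of all genes called in both was not computed. When FPKM were rescaled without small RNA symbols, 53 were higher and 3 lower, with a median of 0.335 over the members and -0.174 over all genes. Without MR49F vehicle replicate 1, counts gave 73 higher and 2 lower. The shares of all genes called with rescaled FPKM and without that library are not given. Each line is a single line, so resistance, earlier exposure to enzalutamide and other differences between them cannot be told apart.

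RPL31, a protein beside the peptide exit tunnel, differed most. It had 99.97, 98 and 97 CPM in V16D cells and 237, 325 and 386 CPM in MR49F cells. Its log2 fold change was 1.68 ± 0.135 (SE, edgeR adjusted p = 6.42e-07), and it was 1.68 from FPKM. The lines were fully apart, although the MR49F libraries spread widely, and without MR49F vehicle replicate 1 the value was 1.85.

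RPLP1 of the stalk had 632, 677 and 675 CPM in V16D cells and 1393, 1484 and 1417 CPM in MR49F cells, with a log2 fold change of 1.11 ± 0.048 (SE, edgeR adjusted p = 4.11e-09). RPLP2, its partner, was higher by 0.66 (edgeR adjusted p = 3.01e-06), and RPLP0, which holds both on the ribosome, by 0.45 (edgeR adjusted p = 2.05e-05). RPLP1 and RPLP2 libraries did not overlap between the lines.

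RPL10 had 237, 233 and 243 CPM in V16D cells against 422, 529 and 551 CPM in MR49F cells, a log2 fold change of 1.07 ± 0.084 (SE, edgeR adjusted p = 5.49e-07). RPL39, a small protein that lines the exit tunnel, had 184, 182 and 188 CPM against 251, 399.6 and 472 CPM, with 1.01 ± 0.17 (SE, edgeR adjusted p = 0.000207). The lines were apart for both genes, and without MR49F vehicle replicate 1 the values were 1.19 and 1.23. RPL17 was called at 1.24 (edgeR adjusted p = 4.7e-07) on its few counts and at 0.73 (limma adjusted p = 0.000137) from FPKM.

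RPSA, also known as the laminin receptor, went the other way. It had 1036, 1034 and 1029 CPM in V16D cells and 751, 814 and 813 CPM in MR49F cells, without overlap, and its log2 fold change was -0.39 ± 0.047 (SE, edgeR adjusted p = 2.05e-05). RPS15A was also lower from counts (-0.17 (edgeR adjusted p = 0.0301)), with 522, 502 and 518 CPM against 414, 473 and 489 CPM, but it did not pass from FPKM (-0.18 (limma adjusted p = 0.132)). Without MR49F vehicle replicate 1, the lowest of its group for RPS15A, the value was -0.0928 and passed. RPSA was the 1 gene called lower in both.

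Of the genes with further roles, RPL3 was higher in MR49F cells by 0.69 (edgeR adjusted p = 1.31e-05), RPS6 by 0.53 (edgeR adjusted p = 6.15e-05), RPL22 by 0.43 (edgeR adjusted p = 2.18e-05), RPL11 by 0.41 (edgeR adjusted p = 0.00187) and RPL5 by 0.18 (edgeR adjusted p = 0.00393). Without MR49F vehicle replicate 1, RPL11 was at 0.268 and passed. For RPL5 the sign turned with rescaled FPKM (-0.0411). RPS27 did not pass (-0.0038 (edgeR adjusted p = 0.976)). Its libraries overlapped, with 413, 416 and 436 CPM against 341, 463 and 462 CPM. Without MR49F vehicle replicate 1 it gave 0.136 and passed. The paralogues RPS27L (0.26 (edgeR adjusted p = 0.0516)) and RPL10L (0.22 (edgeR adjusted p = 0.238)) did not pass either, and without that library they passed at 0.39 and 0.351.

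**Figure D2:**
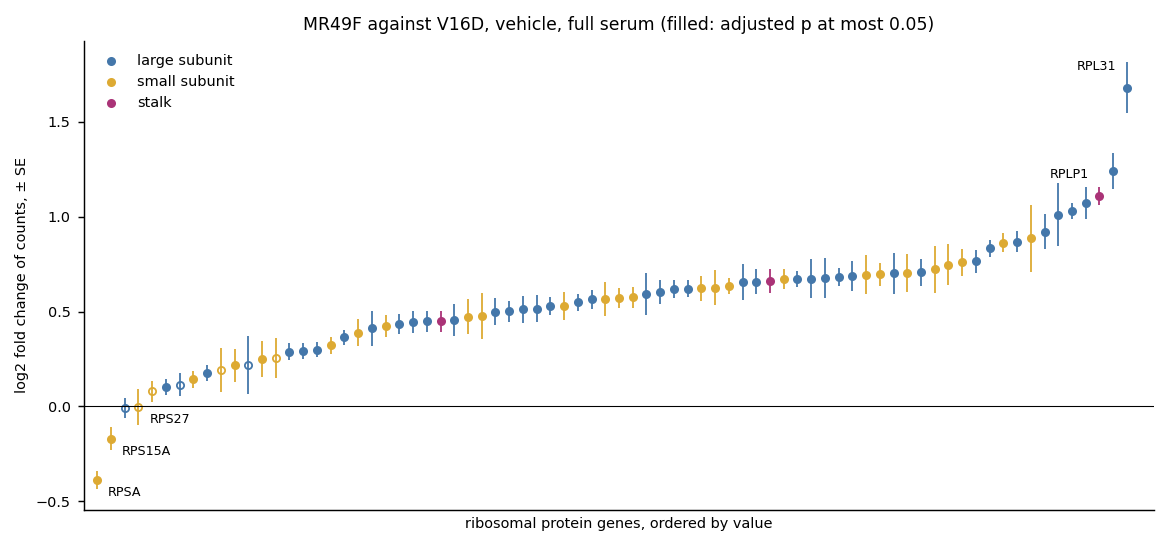
Log2 fold change of counts ± SE (y axis) of the 76 ribosomal protein genes tested, for MR49F against V16D cells with vehicle in full serum, ordered by value (x axis), with 5 genes named. Filled points have an adjusted p of at most 0.05, and colours give the subunit. Nearly all genes lie above 0, from RPSA at -0.39 to RPL31 at 1.68.

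In CSS, enzalutamide against vehicle asks whether the antagonist acts in the resistant line when androgen is scarce. No ribosomal protein gene passed from counts in 73 tested, where 4.38% of all genes were called higher and 2.87% lower by edgeR. At an unadjusted p under 0.05, 4 were higher, and DESeq2 gave none adjusted and 1 unadjusted. The median log2 fold change was 0.025, and it was -0.0012 over all genes. From FPKM, limma called RPL27A higher, 0.14 (limma adjusted p = 0.0455), the 1 of 80, with 19.3% of all genes called in each direction. The coefficient of variation from counts was 8.03%, where it was 1.83% in V16D cells in full serum.

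DHT against vehicle in CSS shows what an androgen does to these genes, and here a minority of the mRNAs fell. Of 73 genes, 3 were higher and 13 lower from counts, 4.11% and 17.8%, against 19.4% higher and 18.1% lower over all genes. The share called lower was near that of all genes, while the share called higher was smaller. The median log2 fold change was -0.09, and -0.012 over all genes. The small subunit had 1 higher and 9 lower of 29 (median -0.19), the large subunit 2 higher and 4 lower of 41 (median 0.02), and no stalk gene passed (median -0.175). From FPKM, limma called none higher and 36 of 80 lower, 45.0%, where 28.9% of all genes were higher and 43.2% lower. The 13 genes lower in counts were all lower in FPKM too, and the 3 higher in counts were not called from FPKM.

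RPS21, a small subunit protein, had the largest called fall. It had 1284, 1349 and 1043 FPKM with vehicle and 916, 775 and 743 FPKM with DHT. Its log2 fold change was -0.52 ± 0.10 (SE, edgeR adjusted p = 0.000244) from counts and -0.59 ± 0.11 (SE, limma adjusted p = 0.00125) from FPKM. No DHT library reached the lowest vehicle library.

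RPL39 had 2742, 2949 and 2486 FPKM with vehicle and 2168, 1860 and 1849 FPKM with DHT, and fell by 0.40 (edgeR adjusted p = 0.00279) in counts. RPL31 had 1193, 1230 and 953 FPKM and 883, 722 and 708 FPKM, and fell by 0.35 (edgeR adjusted p = 0.0032). RPS3A had 1313, 1386 and 1253 FPKM and 1079, 1027 and 1068 FPKM, and fell by 0.36 (edgeR adjusted p = 0.00242). For these 3 genes vehicle and DHT libraries did not overlap. RPS12 had 1455, 1557 and 1376 FPKM and 1136, 988 and 1039 FPKM, also apart, and fell by 0.33 (edgeR adjusted p = 0.00604), which was -0.261 and did not pass without vehicle replicate 2.

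Smaller falls passed for RPS27 (-0.27 (edgeR adjusted p = 0.0143)), RPSA (-0.25 (edgeR adjusted p = 0.0359)) and RPL5 (-0.22 (edgeR adjusted p = 0.0343)), all 3 of which were called from FPKM as well. RPL35, RPL23A and RPS24 rose in counts alone, by 0.25 (edgeR adjusted p = 0.0258), 0.24 (edgeR adjusted p = 0.0155) and 0.24 (edgeR adjusted p = 0.0112). RPS24 had 2326, 2477 and 2683 FPKM with vehicle and 2662, 2790 and 2919 FPKM with DHT, and these overlapped. RPL13A was called from FPKM alone (-0.42 (limma adjusted p = 0.000115), 578, 636 and 623 FPKM against 458, 441 and 472 FPKM), while its counts gave -0.21 (edgeR adjusted p = 0.142). The stalk genes RPLP0 and RPLP1 were likewise called lower from FPKM alone, with log2 fold changes of -0.21 (limma adjusted p = 0.00978) and -0.26 (limma adjusted p = 0.00704). Calls from counts ranged from 7 without vehicle replicate 1 to 31 without vehicle replicate 3.

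**Figure D3:**
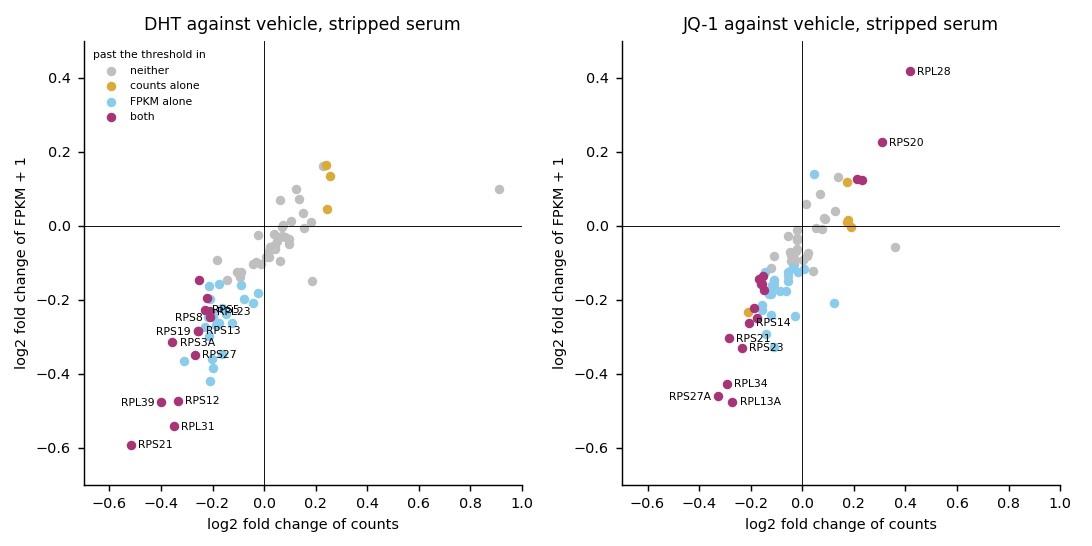
Log2 fold change of counts (x axis) against that of FPKM + 1 (y axis) for ribosomal protein genes tested in both, for DHT (left) and JQ-1 (right) against vehicle in CSS. Colours show where a gene passed the threshold. The genes called in both lie in 1 direction with DHT, down to RPS21, and in both directions with JQ-1, with RPL28 and RPS20 highest.

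DHT against enzalutamide compares the androgen with the antagonist in the same serum. It shares the DHT libraries with the comparison against vehicle. From counts no gene was higher and 6 of 73 were lower, 8.22%, against 10.3% higher and 9.13% lower over all genes, with a median of -0.11 (-0.019 over all genes). The 6 genes were RPS21 (-0.36 (edgeR adjusted p = 0.0156)), RPL39 (-0.33 (edgeR adjusted p = 0.0197)), RPS3A (-0.31 (edgeR adjusted p = 0.00645)), RPS12 (-0.28 (edgeR adjusted p = 0.0316)), RPL5 (-0.27 (edgeR adjusted p = 0.0274)) and RPS27 (-0.26 (edgeR adjusted p = 0.0262)), and all 6 were also called lower from FPKM. RPS21 had 1059, 1145 and 1116 FPKM with enzalutamide, above each DHT library. From FPKM 45 of 80 were lower and none higher, 56.2%, where limma called 20.9% of all genes higher and 36.5% lower. Only 1 gene passed from counts without DHT replicate 2, and also without enzalutamide replicate 2, while 12 passed without enzalutamide replicate 3.

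JQ-1 was added in CSS with vehicle, with enzalutamide and with DHT, and these 3 comparisons share no library. They ask what BET inhibition does in each setting. With vehicle, 8 of 73 genes were higher and 14 lower, 11.0% and 19.2%, against 22.8% and 23.9% of all genes (median -0.043, and -0.0029 over all genes). With enzalutamide, 2 were higher and 5 lower, 2.74% and 6.85%, against 22.0% and 23.2% of all genes (median -0.0079, and -0.0036). With DHT, 11 were higher and 9 lower, 15.1% and 12.3%, against 26.7% and 28.0% of all genes (median 0.027, and -0.00069). In each setting both shares lay below those of all genes, and calls went in both directions. Whether the effect of JQ-1 on them differed between the 3 settings was not tested.

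From FPKM, limma called 6 higher and 33 lower of 80 with vehicle (all genes 32.5% and 42.6%), 2 higher and 35 lower of 80 with enzalutamide (all genes 31.2% and 44.4%), and 5 higher and 19 lower of 80 with DHT (all genes 35.5% and 43.3%), leaving out RPL3L, which passed the filter through 1 group. The members called in both counts and FPKM, all with the same sign, numbered 17, 7 and 12. The share of all genes called in both was not computed. The median of the members from FPKM was -0.108, -0.109 and -0.0368, so with DHT its sign differed from that of counts. The split of the calls moved with the scaling: FPKM rescaled without small RNA symbols gave 10 higher and 25 lower, 8 higher and 13 lower, and, again leaving out RPL3L, 23 higher and 14 lower. DESeq2 gave 9 higher and 2 lower with vehicle. For these fits, and for those without 1 library, the shares of all genes called are not given. Calls from counts with vehicle numbered 36 without vehicle replicate 3 and 7 without JQ-1 replicate 3, those with enzalutamide 2 without enzalutamide and JQ-1 replicate 2, and those with DHT 12 without DHT and JQ-1 replicate 2. Of the 73 genes, 2 were called higher from counts in all 3 comparisons, RPL28 and RPS20, and 1 was called lower in all 3, RPL13A. These were 2.74% and 1.37% of the members, where 15.0% of all genes tested in the 3 were called higher in each and 14.4% lower. From FPKM the same 2 genes were higher in all 3, and 11 were lower in all 3, RPL13A among them, 2.50% and 13.8% of 80 against 25.0% and 32.2% of all genes.

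RPL28, a large subunit protein, had 511, 547 and 550.1 FPKM with vehicle and 696, 713 and 738 FPKM with JQ-1. Its log2 fold change was 0.42 ± 0.061 (SE, edgeR adjusted p = 1.88e-07) from counts. All JQ-1 libraries lay above all vehicle libraries. With enzalutamide it had 622, 559 and 534 FPKM and with JQ-1 added 692, 666 and 734 FPKM, again without overlap, and rose by 0.29 ± 0.074 (SE, edgeR adjusted p = 0.00188). With DHT it had 469, 521 and 582 FPKM and with JQ-1 added 574, 624 and 662 FPKM, a rise of 0.18 ± 0.075 (SE, edgeR adjusted p = 0.0374), and these groups overlapped.

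RPS20, a protein of the head of the small subunit, had 494, 522 and 470.4 FPKM with vehicle and 587, 573 and 579 FPKM with JQ-1, a rise of 0.31 ± 0.069 (SE, edgeR adjusted p = 0.000217). With enzalutamide it had 501, 473 and 482 FPKM and then 587, 594 and 589 FPKM, with 0.34 ± 0.078 (SE, edgeR adjusted p = 0.000974). With DHT it had 424, 430.1 and 454 FPKM and then 541, 559 and 546 FPKM, with 0.30 ± 0.074 (SE, edgeR adjusted p = 0.00072). In each setting the libraries with JQ-1 lay above those without it.

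RPL13A fell. It had 436, 439.9 and 442 FPKM with JQ-1, below all 3 vehicle libraries (578, 636 and 623 FPKM), and its log2 fold change was -0.27 ± 0.10 (SE, edgeR adjusted p = 0.0242) from counts and -0.48 ± 0.044 (SE, limma adjusted p = 1.69e-05) from FPKM. With enzalutamide it had 629.8, 602 and 615 FPKM and with JQ-1 added 485, 476 and 488 FPKM, a log2 fold change of -0.30 ± 0.105 (SE, edgeR adjusted p = 0.0209). With DHT and JQ-1 it had 346, 385 and 361 FPKM, below all DHT libraries, with -0.405 ± 0.10 (SE, edgeR adjusted p = 0.00104). The count calls with vehicle and with enzalutamide were each lost when single libraries were left out, with values from -0.152 to -0.283 and from -0.22 to -0.31, while the FPKM groups were apart in each setting. The members of chromosome 19 among these 3, RPL28 and RPL13A, moved in opposite directions.

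Other genes moved in some of the settings. RPS27A, a fusion of ubiquitin with a small subunit protein, had 377, 404 and 329 FPKM with vehicle and 292, 266 and 247 FPKM with JQ-1 and fell by 0.325 (edgeR adjusted p = 0.00189). It also fell when JQ-1 was added to enzalutamide (-0.255 (edgeR adjusted p = 0.0312)), and added to DHT its value was -0.024 (edgeR adjusted p = 0.848). RPS25 fell when JQ-1 was added to enzalutamide (-0.255 (edgeR adjusted p = 0.00751)) and to DHT (-0.30 (edgeR adjusted p = 0.000576)), and its value with vehicle was -0.11 (edgeR adjusted p = 0.172). RPL14, RPL19 and RPL29 of the large subunit were each called lower in 2 of the 3.

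RPLP1 had 4232, 4389 and 4575 FPKM with DHT and 4878, 5501 and 5207 FPKM with JQ-1 added. The groups did not overlap, and it rose by 0.32 ± 0.067 (SE, edgeR adjusted p = 9.77e-05). It rose also with vehicle (0.17 (edgeR adjusted p = 0.0124)), and with enzalutamide its value was 0.17 (edgeR adjusted p = 0.0549). RPLP2 passed, of the 3 settings, with DHT (0.21 (edgeR adjusted p = 0.0334)), and RPLP0 passed in none. RPL22, which is known to bind RNAs outside the ribosome, fell when JQ-1 was added to DHT (-0.28 (edgeR adjusted p = 0.00403)) from 185, 189.5 and 195 FPKM to 150.3, 158 and 156 FPKM, without overlap.

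Several genes that were lower with DHT were higher when JQ-1 was added to it, in comparisons that share the DHT libraries. RPL39 gave 0.26 (edgeR adjusted p = 0.0087), RPS27 gave 0.21 (edgeR adjusted p = 0.0149), RPS12 gave 0.21 (edgeR adjusted p = 0.0298) and RPSA gave 0.22 (edgeR adjusted p = 0.0116). Of these, none was called from FPKM, where RPSA was at -0.013. RPS12 was the 1 gene called higher in 1 JQ-1 comparison and lower in another, at -0.18 (edgeR adjusted p = 0.0497) with vehicle. RPS6 (0.004, -0.0079 and 0.0049), RPL3 (-0.11, -0.017 and 0.044) and RPL11 (-0.022, -0.055 and -0.058) passed from counts with JQ-1 in none of vehicle, enzalutamide and DHT.

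**Figure D4:**
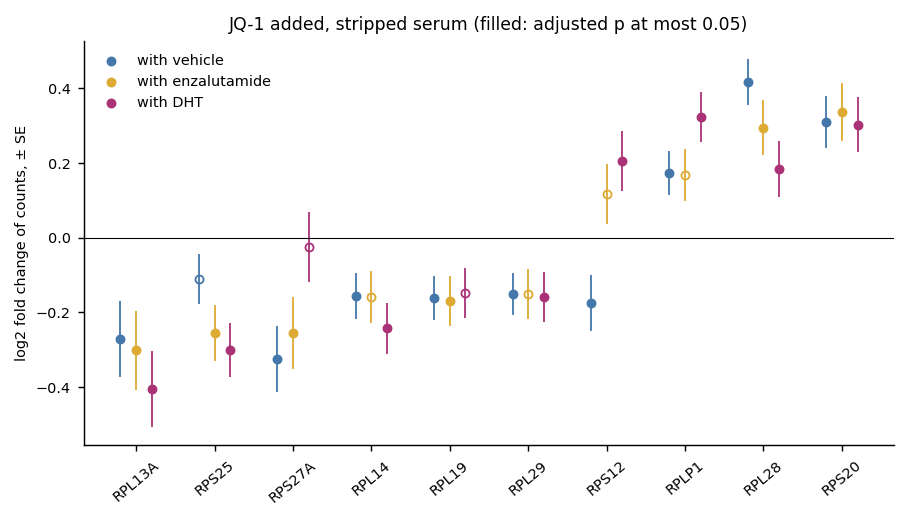
Log2 fold change of counts ± SE (y axis) with JQ-1 added to vehicle, enzalutamide or DHT in CSS, for the 10 ribosomal protein genes (x axis) called in at least 2 of the 3 comparisons. Filled points have an adjusted p of at most 0.05. RPL28 and RPS20 lie above 0 and RPL13A below 0 in all 3, and RPS12 lies on both sides.

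RPL3L was close to 0 FPKM in all libraries of vehicle, enzalutamide and DHT in CSS, with at most 0.0742. It had 0.505, 0.54 and 0.691 FPKM with JQ-1, 0.277, 0.289 and 0.388 FPKM with enzalutamide and JQ-1, and 3.33, 2.42 and 2.99 FPKM with DHT and JQ-1. The 3 JQ-1 groups lay above all others and did not overlap one another. It passed the filter at 1 FPKM through the DHT and JQ-1 group alone and had too few counts to be tested, so these values are given as a description. Its paralogue RPL3 had 1636, 1600 and 1671 FPKM with DHT and 1573, 1669 and 1603 FPKM with DHT and JQ-1, and those overlapped.

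**Figure D5:**
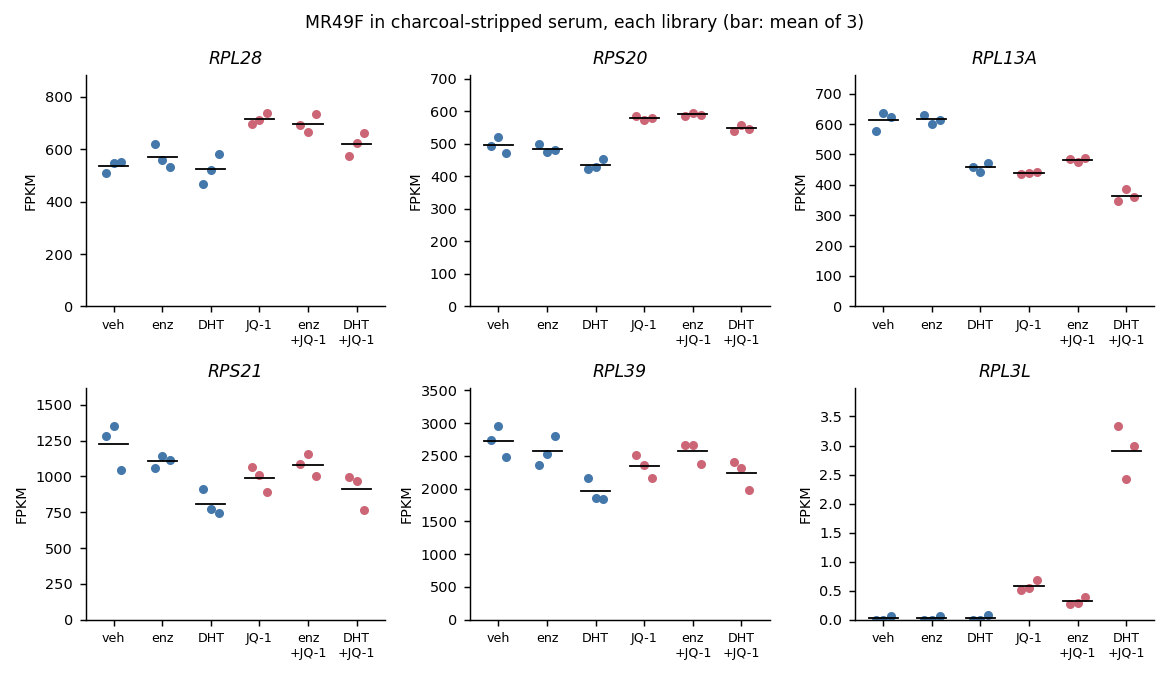
FPKM (y axis, from 0) of 6 ribosomal protein genes in each CSS library, by treatment (x axis), with bars for the mean of 3. Blue points lack JQ-1 and red points have it. RPL28 and RPS20 are higher and RPL13A lower with JQ-1, RPS21 and RPL39 are lowest with DHT, and RPL3L is highest with DHT and JQ-1.

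Proteins of the ribosome that the rule does not name were compared with the members. FAU, which carries RPS30, was higher in MR49F than in V16D cells with vehicle, by 1.01 (edgeR adjusted p = 3.1e-08). Of the 7 such genes, 5 were higher and 1 was lower there, where 31.9% and 31.8% of all genes were. With DHT in CSS, 3 of the 7 were higher and 0 lower (19.4% and 18.1% of all genes). RPL22L1, a paralogue of RPL22, rose with DHT (0.75 (edgeR adjusted p = 0.000387)). It fell with JQ-1 in vehicle (-0.70 (edgeR adjusted p = 5.14e-05)), enzalutamide (-0.85 (edgeR adjusted p = 1.25e-06)) and DHT (-0.795 (edgeR adjusted p = 5.86e-07)). With JQ-1 in vehicle, 0 of the 7 were higher and 1 lower (22.8% and 23.9% of all genes). In enzalutamide these were 0 and 2 (22.0% and 23.2%), and in DHT 1 and 5 (26.7% and 28.0%).

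Of 15 translation factors known to be encoded by TOP mRNAs, 10 were higher and 1 lower with enzalutamide in V16D cells (18.2% and 19.3% of all genes), and 9 were higher and 1 lower in MR49F than in V16D cells (median 0.27, and 31.9% and 31.8% of all genes). The 1 lower between lines was EEF1A1, the main elongation factor that brings tRNA (-0.28 (edgeR adjusted p = 0.000306)), while EEF2, the translocase, was higher (0.635 (edgeR adjusted p = 8.46e-07)). With DHT, 2 were higher and 3 lower (19.4% and 18.1% of all genes). With JQ-1 in vehicle, 2 were higher and 4 lower (22.8% and 23.9% of all genes). EEF2 rose (0.31 (edgeR adjusted p = 3.11e-06)), as did PABPC1, the poly(A)-binding protein (0.46 (edgeR adjusted p = 9.08e-09)), and NPM1, a nucleolar chaperone, fell (-0.29 (edgeR adjusted p = 0.000312)).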

How the data were processed

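RNA-seq of 30 libraries in 10 conditions was analysed. The authors aligned reads with TopHat2 2.0.9 to hg19 (GRCh37) and deposited raw counts per gene symbol, made with HTSeq, whose strand setting is not given in the sources used here. The authors also deposited FPKM per transcript from Cufflinks 2.1.1, which were summed by symbol. The low share of reads on genes in the charcoal-stripped serum libraries limits the precision of their counts. Counts of genes opposite an expressed gene were also raised there. Whether the strand setting was the same in both sera is not known, so what the CSS counts measure is uncertain too. The cause was not tested. Counts were tested with edgeR 4.0.16 in R 4.3.3 (TMM, filterByExpr with minimum count 10 and minimum total 15, glmQLFit and glmQLFTest, Benjamini-Hochberg adjusted p of at most 0.05), each fit holding the libraries of its own groups only. CPM were TMM-scaled within each serum. FPKM of at least 1 in at least 3 libraries were tested with limma 3.58.1 on log2(FPKM + 1), a scale that understates changes of low genes. Alternatives were DESeq2 1.42.0 size factors and its Wald test, TMM factors without the members, no filters, a pseudocount of 0.1, the replicate number as a block and each library left out. Rescaling FPKM without small RNA symbols was added after seeing the data. Scripts were tested on simulated data.

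The members and gene lists were chosen with earlier results of these data known. Named were 16 fixed members, the highest and the lowest 5 by mean FPKM, and in each comparison the 5 called members with the largest change in each direction and at least 5 CPM in the higher group. Others named were chosen after their values were seen. Some genes that the rule names are not reported here, but stay in the fits and counts. Gene positions on GRCh37 were taken from GENCODE release 44 and found for 81 of 82 genes, and start sequences are from RefSeq (GRCh38.p14). Figures were drawn with Python 3.11.15.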

Additional observations from a re-analysis of the deposited data

Results flagged for a closer look

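RPL27A was the 1 of 76 ribosomal protein genes called from counts when the difference between the lines in the response to enzalutamide was tested. That is 1.32% called lower, where 2.76% of all genes were called lower and 4.19% higher. Other settings called 1 to 12 members, and fits without 1 library 0 to 17, so standing alone depends on the setting. For RPL27A, the log2 fold change in MR49F cells minus that in V16D cells was -0.195 from counts. Every enzalutamide library was above vehicle in V16D cells and below it in MR49F cells. The V16D value was 0.09 ± 0.022 and the MR49F value -0.096 ± 0.041 (± SE). The difference kept its sign in each of the other settings and with each library left out, and it did not pass when V16D vehicle replicate 1 was left out. Without MR49F vehicle replicate 1, which stood apart, it was -0.165 and passed.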

How the results depend on the processing

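Counts of called members were recomputed in 9 other settings and without each library. Apart from limma on log2(FPKM + 1), the shares of all genes called higher and lower are not given for these. With enzalutamide in V16D cells, 41 became 21 with limma on FPKM without a filter, and 32 to 47 without 1 library. With enzalutamide in MR49F cells, 2 became 8 without a count filter, 4 with DESeq2, 5 with the replicate block, 0 in all 4 FPKM settings and 0 to 20 without 1 library. Between the lines, 69 stayed at 56 to 72, and 64 to 75 without 1 library. For the interaction, 1 became 12 without a filter, 3 with DESeq2, 3 with the replicate block and 0 to 17 without 1 library, with 17, 6 and 16 without MR49F vehicle replicates 1, 2 and 3. In CSS, enzalutamide gave 1 in place of 0 with limma (pseudocounts 1 and 0.1), with FPKM rescaled and with the replicate block, and 0 without any 1 library. DHT gave 16, then 8 with DESeq2, 36 with limma at either pseudocount, 30 without the FPKM filter, 52 (4 higher, 48 lower) rescaled and 7 to 31 without 1 library. DHT against enzalutamide gave 6, then 3 without a count filter, 1 with DESeq2, 45 with limma at either pseudocount, 29 unfiltered, 52 (1 higher, 51 lower) rescaled, 2 with the replicate block and 1 to 12 without 1 library, 12 being without enzalutamide replicate 3. JQ-1 gave 22, then 11 with DESeq2 (9 higher, 2 lower), 39 with limma at either pseudocount, 35 rescaled (10 higher, 25 lower) and 7 to 36 without 1 library (36 without vehicle replicate 3, 12 without vehicle or JQ-1 replicate 2, 7 without JQ-1 replicate 3). JQ-1 with enzalutamide gave 7, then 3 with DESeq2, 37 with limma at either pseudocount, 23 unfiltered, 21 rescaled (8 higher, 13 lower) and 2 to 9 without 1 library (4 without enzalutamide and JQ-1 replicate 1 or enzalutamide replicate 2, 2 without enzalutamide and JQ-1 replicate 2). JQ-1 with DHT gave 20, then 13 with limma unfiltered, 38 rescaled (24 higher, 14 lower) and 12 to 21 without 1 library, 12 being without DHT and JQ-1 replicate 2. The unfiltered and rescaled values for JQ-1 with DHT include RPL3L, which passed the filter at 1 FPKM through the DHT and JQ-1 group alone. Leaving RPL3L out, as in the Results, gave 2 higher and 10 lower unfiltered, and 23 higher and 14 lower rescaled. The cause of these shifts was not tested. Where a left-out library leaves 2 in a group, the fit still has its spread.

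The share of the members gave ratios of 1.01 (all FPKM) and 1.05 (without small RNA symbols) with enzalutamide in V16D cells, where counts gave 1.08. With enzalutamide in MR49F cells it was 0.894 (all FPKM), where counts gave 1.03, and without vehicle replicate 1 these were 0.949 and 1.02. Between the lines it was 1.06 ± 0.107 (libraries overlapped) and 1.25, where counts gave 1.36, and without MR49F vehicle replicate 1 these were 0.996, 1.27 and 1.38. Signs turned for RPL5 between the lines (-0.0411, rescaled), RPS27 between the lines (-0.0755 to 0.136, without MR49F vehicle replicates 2 and 1), RPL22 with DHT (-0.109, rescaled), RPL37A with JQ-1 (-0.00256, FPKM), RPS27L with JQ-1 (-0.209, -0.212 and -0.151 in FPKM settings) and RPSA with JQ-1 and DHT (-0.0133, FPKM). Of all values of named members in other settings, 1411 kept direction and call, 95 lost the call, 102 gained it and 12 changed sign. Without 1 library these were 1035, 99, 35 and 1.

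Replicate numbers in the labels gave no clear pairing. Deviations of libraries with the same number correlated between -0.0665 and 0.0274 in V16D cells, -0.0312 and 0.182 in MR49F cells in full serum, and -0.203 and 0.205 in CSS. With different numbers these were -0.0384 to 0.0797, -0.244 to 0.2 and -0.196 to 0.229. In MR49F cells in full serum the mean was 0.0893 for the same number and -0.043 for different numbers. So few pairs cannot settle whether libraries were paired. With the replicate block the counts of called members, in the order of the comparisons listed here, were 40, 5, 69, 3, 1, 11, 2, 21, 7 and 27. The setting of counts per kilobase was not run. Far fewer reads were counted in CSS than in full serum, so changes that passed in V16D cells could lie below what CSS could show, and FPKM carry no depth.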

Other observations

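The 76 genes of mitochondrial ribosomal proteins, which build the separate ribosome of the mitochondrion, were called lower with JQ-1 in larger number than the cytosolic members, a difference that was not tested. From counts (edgeR's quasi-likelihood test), 3 were higher and 23 lower of 74 with JQ-1 against vehicle (median log2 fold change -0.22, with 22.8% of all genes called higher and 23.9% lower), 1 and 26 with enzalutamide (median -0.28, all genes 22.0% and 23.2%) and 3 and 33 with DHT (median -0.27, all genes 26.7% and 28.0%). From FPKM, limma called 5 higher and 58 lower of 76 with JQ-1 against vehicle (median -0.307, all genes 32.5% and 42.6%). With JQ-1 added to enzalutamide it called 3 and 65 (median -0.416, all genes 31.2% and 44.4%). Added to DHT, 5 and 59 were called (median -0.406, all genes 35.5% and 43.3%). In counts, MRPL24 (-1.57 (edgeR adjusted p = 6.11e-13)) and MRPL12 (-1.27 (edgeR adjusted p = 9.2e-12)) were among those that fell with DHT and JQ-1. With DHT against vehicle, 14 were higher and 3 lower from counts (median 0.136, all genes 19.4% and 18.1%). From FPKM these were 37 and 8 (median 0.116, all genes 28.9% and 43.2%). Between the lines, 38 were higher in MR49F cells and 11 lower from counts (median 0.186, all genes 31.9% and 31.8%).

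Among 7 upstream kinases and binders, EIF4EBP1, the mTOR-regulated repressor of cap-dependent initiation, rose in CSS with enzalutamide (0.75 (edgeR adjusted p = 0.000384)) and with DHT (1.44 (edgeR adjusted p = 3.93e-10)). It fell when JQ-1 was added to vehicle (-0.49 (edgeR adjusted p = 0.00186)), enzalutamide (-1.15 (edgeR adjusted p = 1.45e-07)) and DHT (-1.91 (edgeR adjusted p = 1.4e-15)). LARP1, which binds TOP mRNAs, fell with JQ-1 in the same 3 settings, with log2 fold changes of -0.475 (edgeR adjusted p = 1.69e-07), -0.61 (edgeR adjusted p = 2.28e-07) and -1.09 (edgeR adjusted p = 1.51e-14). In each JQ-1 comparison 2 of the 7 were called higher. These were EIF4EBP2, a paralogue of EIF4EBP1 (1.1, 0.85 and 1.04), and MTOR (0.37, 0.36 and 0.29). Of all genes, 22.8%, 22.0% and 26.7% were called higher with vehicle, enzalutamide and DHT. Called lower were 2, 4 and 3 of the 7, where 23.9%, 23.2% and 28.0% of all genes were. MTOR also rose with DHT (0.96 (edgeR adjusted p = 1.31e-07)). Of 10 other initiation factors tested, 8 were higher and none lower with DHT (median 0.468, all genes 19.4% and 18.1%), EIF4G1 among them (0.62 (edgeR adjusted p = 3.02e-07)).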
